A study of Homo sapiens with 10 samples.

Results

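Broad H3K4me3 domains were studied in RPMI-8402 cells, a long-established human line of T-cell acute lymphoblastic leukaemia, grown in serum-supplemented RPMI medium, with no drug or genetic change given in the labels. H3K4me3 regions on chromosomes 1 to 22 and X were joined where the gap between them was 1 kb or less, and joined domains of 4000 bp or more were kept. This gave 338 broad domains of 11978 joined domains in all. They were set against the 5136 joined domains of 1000 to 2000 bp, called narrow domains here. CUT&RUN, in which an antibody steers a nuclease to its target so that nearby DNA is cut free and sequenced, gave the peak lists. MYCN came from set A, H3K4me3 from set B, MYC, H3K27ac and H3K4me1 from set C, and MYC again from set D. The series holds 10 libraries, of which 4 are control IgG and were not used here. Every list is 1 library, so set, antibody and peak caller cannot be told apart between lists. The lists give positions on hg19 without scores or read counts, so depth is unknown and an interval covers counting error over listed domains or peaks only. Domains are not replicates, and a p-value below describes these lists, not the spread between cultures.

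H3K4me3 is laid down at active promoters by methyltransferase complexes of the SET1 and MLL family, usually as a short block around a transcription start. At some genes the block spreads over several nucleosomes to either side, and the widest blocks of a cell type have been described at genes that define cell identity. H3K27ac marks active promoters and enhancers, and H3K4me1 marks enhancers and promoter flanks. MYC and MYCN are paralogous transcription factors that pair with MAX and bind many active promoters, and MYC is often activated in T-cell leukaemia.

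Members were chosen by their measured H3K4me3 width, so the values in this paragraph are a description without a test. Broad domains were 4004 to 13008 bp wide, with a median of 4733 bp and quartiles of 4330 and 5365.5 bp. Most were close to the lower limit, with 208 under 5000 bp and 51 of 6000 bp or more. They made up 2.82% of the joined domains and 1.72 Mb of the 20.3 Mb they cover, or 8.48%. Of the 338, 146 were a continuous listed region, 122 joined 2 regions, 55 joined 3 and 15 joined 4 or 5. The joined gaps had a median of 271 bp and made up 6.12% of the bases. The members nearest the limit were 4004, 4006 and 4006 bp wide, and all 3 held MYC of both sets and H3K27ac. The domains just outside it fell 1 bp short of it or were 3996 and 3994 bp wide, and all 3 held MYC of both sets while 2 held H3K27ac.

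Nearly all broad domains held MYC, and most held H3K27ac. MYC of set C overlapped 292 of the 338 (86.4%, exact 95% interval 82.3 to 89.9%), against 48.1% of narrow domains (46.7 to 49.4%) and 50.7% of all joined domains. MYC of set D overlapped 302 (89.3%, 85.6 to 92.4%), against 84.2% of narrow domains (83.1 to 85.1%) and 79.9% of all. At least 1 of the MYC lists was met in 321 broad domains (95%), against 86.7% of narrow ones and 82.9% of all. H3K27ac was met in 293 broad domains (86.7%, 82.6 to 90.1%), against 75.7% of narrow ones (74.5 to 76.8%) and 73.3% of all. MYCN was met in 34 (10.1%, 7.07 to 13.8%), against 5.26% of narrow domains (4.66 to 5.90%) and 5.92% of all. H3K4me1 ran the other way, with 38 broad domains (11.2%, 8.08 to 15.1%) against 16.8% of narrow ones (15.8 to 17.8%) and 16.4% of all. A wide domain overlaps a peak more easily, so these shares are a description and were not tested.

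Per kb of H3K4me3, every factor and mark was sparser in broad domains. The divisor is the width by which members were chosen, and percent of bases covered, used below, has the same divisor. Only H3K4me1 also had fewer centres per domain, a mean of 0.0976 in broad and 0.143 in narrow ones. For the other lists a ratio under 1 means that centres rose less than width. The p-values measure departure from counts in proportion to length. Counted by peak centre, MYC of set D had 0.224 peaks per kb in broad domains and 0.562 in narrow ones, a ratio of 0.398 (95% interval 0.359 to 0.442, adjusted p = 2.73e-66, n = 338 broad domains, in a quasi-Poisson fit over all joined domains of at least 1000 bp). H3K27ac had 0.217 peaks per kb in broad domains and 0.491 in narrow ones, a ratio of 0.442 (0.397 to 0.491, adjusted p = 7.3e-51, n = 338). H3K4me1 showed the lowest ratio of the lists, with 0.0192 peaks per kb in broad domains and 0.0954 in narrow ones (ratio 0.201, 0.142 to 0.286, adjusted p = 4.66e-19, n = 338). MYCN had 0.0210 and 0.0359 peaks per kb in broad and narrow domains, a ratio of 0.584 (0.412 to 0.828, adjusted p = 0.00252, n = 338). MYC of set C differed least, with 0.214 and 0.306 peaks per kb in broad and narrow domains (ratio 0.698, 0.625 to 0.779, adjusted p = 1.83e-10, n = 338). The set C ratio was 1.08 when only the wider set C regions, those at or above the list's median width, were counted (adjusted p = 0.282, n = 338). The MYCN call was lost with broad domains taken from 3000 bp, at a ratio of 0.818.

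For MYC and H3K27ac the lower density went with a number of peaks close to 1 per broad domain. Broad domains held a mean of 1.14 MYC set D centres each, against 0.844 in narrow ones. For H3K27ac the means were 1.10 and 0.737 in broad and narrow domains, and for MYC of set C 1.09 and 0.460. Exactly 1 MYC set D centre lay in 220 broad domains (65.1%), 76 held 2 and 4 held 3 or more, while 80.4% of narrow domains held 1 and 1.99% held 2 or more. Exactly 1 H3K27ac centre lay in 210 broad domains, 72 held 2 and 6 held 3 or more. A second peak was thus listed in 23.7% of broad domains for MYC of set D, 23.1% for H3K27ac and 21.6% for MYC of set C.

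The length of MYC set D and H3K27ac in a domain levelled off as H3K4me3 grew wider. MYC set D covered 458 bp per domain at 1000 to 2000 bp of H3K4me3 and 743 bp at 3 to 4 kb. Among broad domains it covered 755 bp at 4 to 5 kb, 697 bp at 5 to 6 kb and 717 bp at 6 kb or more. H3K27ac covered 495 bp at 1000 to 2000 bp, 985 bp at 3 to 4 kb, and 976, 1029 and 1063 bp in the same bins of broad domains. MYC of set C did not level off, with 479 bp at 1000 to 2000 bp, 1273 bp at 3 to 4 kb, and 1703, 2041 and 2779 bp in the bins of broad domains. These bins were not tested.

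**Figure D1:**
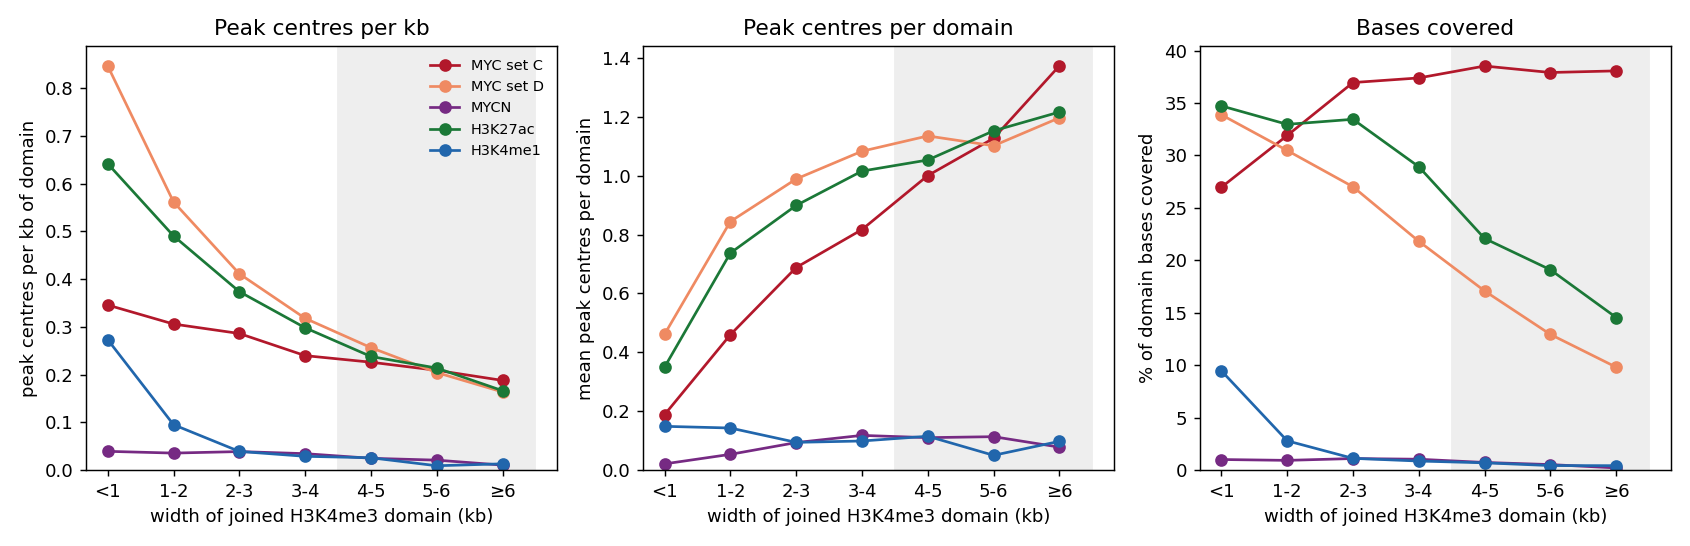
Peak centres per kb of H3K4me3 domain, mean peak centres per domain, and percent of domain bases covered, against the width of the joined domain in kb (1-2 is 1000 to 2000 bp), for 5 peak lists in colour. The grey area holds the 338 broad domains: MYC set D lies at 0.257, 0.204 and 0.164 centres per kb there, while its centres per domain stay between 1.10 and 1.20.

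Measured as covered bases over all domains of a class, with or without a peak, the MYC lists moved in opposite directions. MYC of set D covered 14.5% of the bases of broad domains and 30.5% of those of narrow domains, a difference of -16.0 percentage points (odds ratio 0.386, 0.360 to 0.415, adjusted p = 4.95e-147 in a quasi-binomial fit over the same domains). MYC of set C covered 38.3% of broad and 31.9% of narrow domains, 6.37 points more (odds ratio 1.32, 1.19 to 1.47, adjusted p = 1.43e-07, n = 338). This value mixes how many domains held set C, 86.4% of broad and 48.1% of narrow ones, with how far it filled them. Domains filled by set C to 80% or more were rarer among broad domains, at 7.10% against 12.2% of narrow ones. The set C difference rested on the narrow end: against domains over 2000 and under 4000 bp it was 1.19 points (adjusted p = 0.323, n = 338 and 3491 domains). The set D difference in that comparison was -11.0 points. With both lists merged, MYC covered 40.5% of broad and 45.0% of narrow domains (adjusted p = 3.74e-06, n = 338), a difference of -4.57 points that set D alone put at -16.0 and set C alone at 6.37. The merged call was lost with unjoined regions (-1.67 points) and reversed with the wider peaks alone (4.43 points, adjusted p = 0.000208, n = 338). The set C list came from SEACR and the set D list from MACS2, and here the caller cannot be told apart from the set.

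The middle domain of each class shows the same contrast. The median broad domain was covered to 34.4% by MYC of set C (quartiles 22.2 and 55.3%), against 0% in the median narrow domain (0 and 63.2%), since 2668 of the 5136 narrow domains held no set C region. For MYC of set D the medians were 14.8% in broad domains (7.97 and 20.8%) and 31.4% in narrow ones (18.6 and 43.4%). The quartile ranges of the set C classes overlapped, and those of set D overlapped only between 18.6 and 20.8%.

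**Figure D2:**
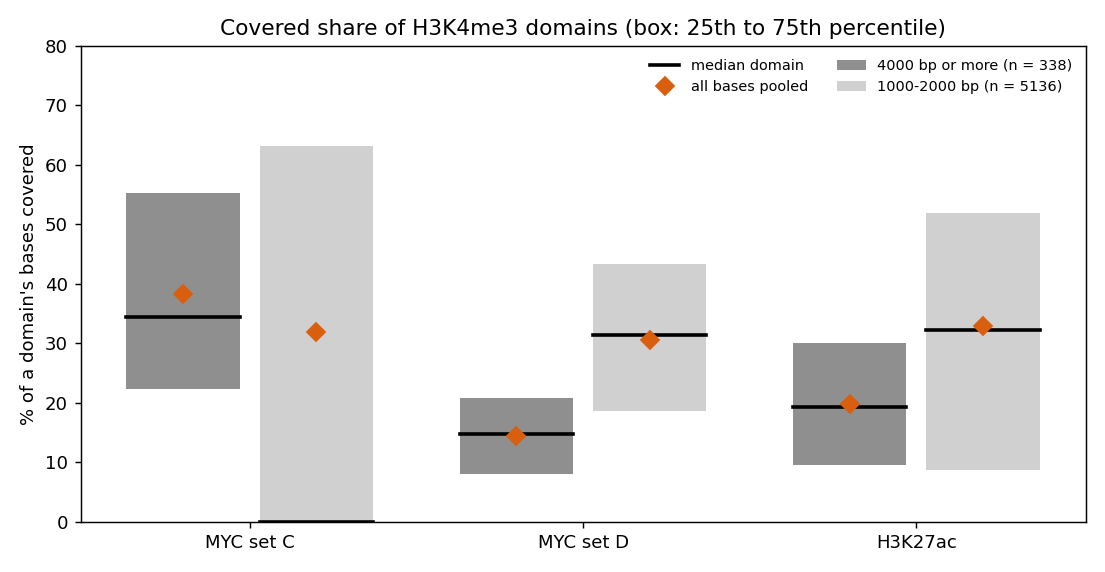
Percent of a domain's bases covered by MYC set C, MYC set D and H3K27ac in broad domains (4000 bp or more, dark) and narrow domains (1000-2000 bp, light). Boxes span the 25th to 75th percentile of domains, lines are medians and diamonds give all bases pooled: set C lies at 38.3% and 31.9%, set D at 14.5% and 30.5%, and H3K27ac at 19.7% and 33.0%.

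Most broad domains held both MYC lists, as each list alone met most of them. MYC of both sets lay in 273 of the 338 (80.8%, 76.2 to 84.8%), against 45.5% of narrow domains (44.1 to 46.9%). Set C alone or with set D met 86.4% of broad and 48.1% of narrow domains, and set D likewise 89.3% and 84.2%. With shares this high both lists often fall in 1 broad domain whatever their relation, so the count is no measure of their agreement. Set C alone was found in 19 and set D alone in 29, and neither in 17 (5.03%). Of the 384 MYC set D centres in broad domains, 82.8% lay inside a set C region (78.7 to 86.5%), against 53.0% of 4335 in narrow domains (51.5 to 54.5%). Of the set D bases in broad domains 84.9% were shared with set C, but these were 32.1% of the set C bases there, against 56.9% and 54.4% in narrow domains. Set C regions centred in broad domains were long, with a median of 1508 bp (quartiles 1100 and 2038), against 1128.5 bp (908 and 1377.8) in narrow ones. Set D peaks were of much the same width in both, at a median of 562 bp (338 and 891.75) in broad and 528 bp (381 and 694) in narrow domains. A shared signal track is named in the headers of both MYC lists, so their agreement is not that of independent replicates.

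A run of 11 broad domains in chr6:26029396-27863951 stood apart in MYC set C. Their neighbours lay within 1 Mb of each other, and no other run of broad domains held more than 5. Set C covered between 0 and 100% of these 11 domains, with a median of 98.3%, against a median of 33.4% in the other 327. Set D covered between 0 and 15.0%, with a median of 4.88%, against 14.9% in the other 327. The domain chr6:27774546-27782292 (7747 bp) was covered to 100% by set C and to 3.98% by set D, and chr6:26249136-26255533 (6398 bp) to 100% and 9.08%. The exception was the domain chr6:27857335-27863951 (6617 bp), which held neither MYC list and 2 H3K27ac regions. H3K27ac was met in 10 of the 11 and covered 13.0% of their bases, against 20.0% of the other members. No MYCN peak lay in the run, but MYCN was met in only 10.1% of all broad domains, so its absence from 11 says little. Without chromosome 6 the set C difference in covered bases was 4.30 points (adjusted p = 0.000646, n = 301 broad domains) and the set D difference -15.6 points. The cause of the long set C regions was not tested.

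**Figure D3:**
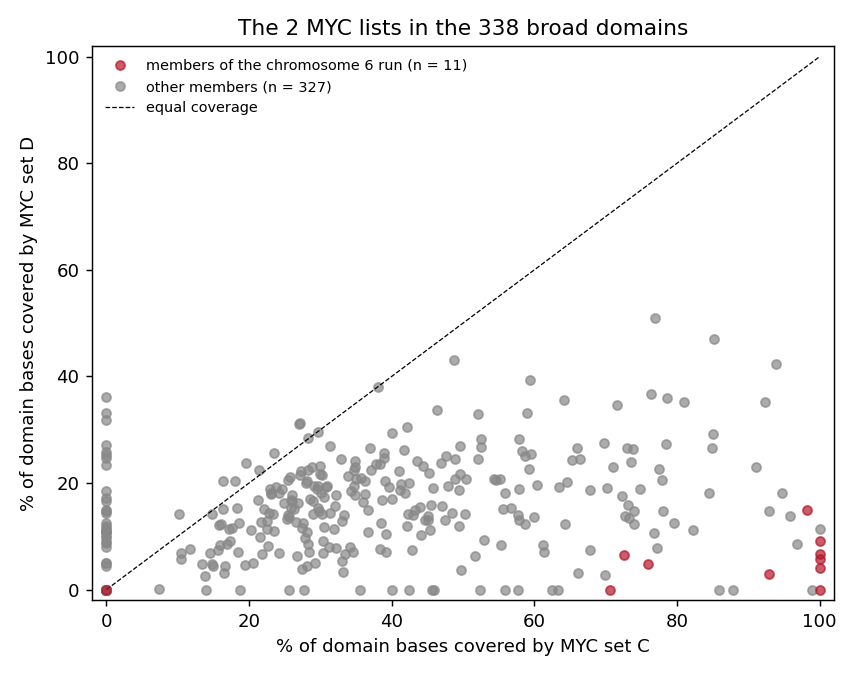
Percent of each broad domain's bases covered by MYC set C (horizontal axis) and MYC set D (vertical axis), 1 point a domain, with the 11 domains of the chromosome 6 run in red. Most points lie under the line of equal coverage, and 10 of the 11 domains of the run lie at 70.6% or more on the set C axis and at 15.0% or less on the set D axis.

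Acetylation filled a smaller part of broad domains. H3K27ac covered 19.7% of the bases of broad domains and 33.0% of narrow ones, 13.2 points less (odds ratio 0.499, 0.457 to 0.546, adjusted p = 1.38e-52, quasi-binomial fit). The median broad domain was acetylated over 19.3% of its length (quartiles 9.50 and 30.0%), and the median narrow domain over 32.2% (8.74 and 51.9%). The H3K27ac regions themselves were longer in broad domains, with a median of 785.5 bp (quartiles 423 and 1276.8) against 651 bp (421 and 911). Part of the MYC peaks lay within them. Of the MYC set D centres, 49.5% lay in H3K27ac in broad domains (44.4 to 54.6%) and 62.2% in narrow ones (60.7 to 63.6%), while set C centres did so in 45.5% (40.3 to 50.8%) and 63.3% (61.3 to 65.2%) of cases. In both classes these shares were higher than the acetylated part of the bases, 19.7% and 33.0%. The shares of centres were not tested.

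Of the 338 broad domains, 45 held no H3K27ac region. Their median width was 4741 bp, against 4725 bp in the 293 acetylated ones. MYC of either set was listed in 37 of the 45 (82.2%, 67.9 to 92.0%), against 284 of the 293 (96.9%, 94.2 to 98.6%). Set D covered 8.03% of their bases, against 15.5% of the acetylated ones, and set C covered 32.6% against 39.1%. The widest without H3K27ac was on chr5:133448084-133455787 (7704 bp) and held no peak of any list. Next came chr7:23507853-23515427 (7575 bp), with 2 MYC peaks in each set, and chr7:37386060-37393629 (7570 bp), with 1 set C region and no set D peak. The other two of the 5 widest were chr14:99732657-99739904 (7248 bp) and chr6:26194907-26202089 (7183 bp), and both held MYC in each set.

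Broad domains without MYC were few. The 17 with neither MYC list also held no MYCN, 9 of them held H3K27ac, and 8 (2.37%, 1.03 to 4.61%) held none of the 5 lists, against 5.86% of narrow domains (5.23 to 6.54%). MYCN was met in 10.1% and H3K27ac in 86.7% of all broad domains, so the absence of MYCN from 17 says little. After the domain on chr7:50343680-50352495 (8816 bp, 2 H3K27ac regions), the widest were the unmarked domain on chromosome 5 and chr6:21664082-21671376 (7295 bp, 1 H3K27ac region). Further ones were chr3:23847067-23853615 (6549 bp, 1 H3K27ac region), chr10:121920655-121925965 (5311 bp, unmarked) and chr12:11904967-11909725 (4759 bp, unmarked). H3K4me1 was absent from the 10 widest of these, but it was met in only 11.2% of all broad domains.

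MYCN was met in few domains of either class, 10.1% of broad and 5.26% of narrow ones, and in none of the 17 broad domains without MYC. The 34 broad domains with MYCN held 36 MYCN peaks, 147 to 898 bp wide. All 34 also held MYC of set D, 27 held MYC of set C and 33 held H3K27ac, beside 302, 292 and 293 of all 338. MYCN without MYC was likewise found in 0 narrow domains. Taken peak by peak, 35 of the 36 overlapped a MYC set D peak, 26 a set C region and 28 an H3K27ac region. MYCN peaks centred in broad domains had a median width of 229.5 bp (quartiles 179.75 and 309), against 218 bp (178 and 320) in narrow ones. The median width was 4685 bp in domains with MYCN and 4759 bp in the 304 without it. MYCN covered 0.579% of the bases of broad domains and 0.941% of narrow ones, a difference of -0.362 points (odds ratio 0.613, 0.417 to 0.901, adjusted p = 0.0128, quasi-binomial fit). The call was lost with broad domains from 3000 bp (-0.0749 points) and with the wider MYCN peaks alone (-0.216 points, adjusted p = 0.0947, n = 338).

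Broad domains on chr4:83348471-83353063 (4593 bp) and chr15:50644828-50649191 (4364 bp) held 2 MYCN peaks each. MYCN covered 10.2% and 12.5% of their bases. The first was covered to 64.2% by MYC of set C and to 35.5% by set D, and the second held no set C region and was covered to 23.3% by set D. The widest with MYCN was on chr6:32934699-32942884 (8186 bp), a continuous region covered to 84.9% by set C, 26.5% by set D and 29.1% by H3K27ac. Next in width was chr1:27018645-27026327 (7683 bp), with 3 set C regions, 2 set D peaks and 2 H3K27ac regions. On chromosome 14 all 3 broad domains between 50085349 and 50364031 held MYCN.

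Inside broad domains H3K4me1 was rare and lay mostly near the ends. It covered 0.583% of their bases, against 2.80% in narrow ones (odds ratio 0.203, 0.142 to 0.292, adjusted p = 1.15e-17, quasi-binomial fit). In the outermost 250 bp on the inner side of a broad domain's ends it covered 2.25% of bases, between 250 and 500 bp 1.13%, and between 1000 and 1250 bp 0.203%. Of the 33 H3K4me1 centres inside broad domains, 54.5% lay within 500 bp of an end, against 9.38% of the 384 MYC set D centres and 11% of the 372 H3K27ac centres. The H3K4me1 regions in broad domains were short, with a median of 234 bp (quartiles 191 and 299), against 248 bp (200.75 and 340.25) in narrow domains. By H3K4me1 bases the leading broad domains were chr10:103877149-103881584 (4436 bp, 15.8% covered), chr4:8200432-8204546 (4115 bp, 15.8%), chr17:42293862-42299101 (5240 bp, 10.2%) and chr1:6659808-6663939 (4132 bp, 12.7%). Of the 10 with the most H3K4me1 bases, 9 held H3K27ac and all held MYC of at least 1 set, beside 293 and 321 of all 338.

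Outside the domains the picture for H3K4me1 turned round. In the 5 kb on either side, leaving out bases in any joined H3K4me3 domain, H3K4me1 had 0.0609 peaks per kb beside broad domains and 0.0357 beside narrow ones, a ratio of 1.71 (1.45 to 2.01, adjusted p = 5.7e-10, n = 338, quasi-Poisson fit). Between 1000 and 1250 bp outside the end it covered 3.52% of bases beside broad domains and 1.59% beside narrow ones. H3K27ac had 0.0241 and 0.0175 peaks per kb beside broad and narrow domains, a ratio of 1.38 (1.08 to 1.75, adjusted p = 0.0136, n = 338), and 4 of 8 alternatives kept this call. It was lost in flanks of 2 kb (ratio 1.18), with unjoined regions (1.35) and with broad domains from 3000 bp (1.14) or 6000 bp (1.37). MYC of set C was more frequent beside broad domains, at 0.0160 peaks per kb against 0.00454 (53 and 230 centres, ratio 3.52, 2.54 to 4.87, adjusted p = 1.79e-13, n = 338). MYC of set D did not pass, at 0.00482 and 0.00507 peaks per kb (16 and 257 centres, ratio 0.951, 0.569 to 1.59, adjusted p = 0.849, n = 338). MYCN had 1 centre beside broad and 8 beside narrow domains, too few to compare (ratio 1.91, 0.239 to 15.3, adjusted p = 0.650, n = 338).

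**Figure D4:**
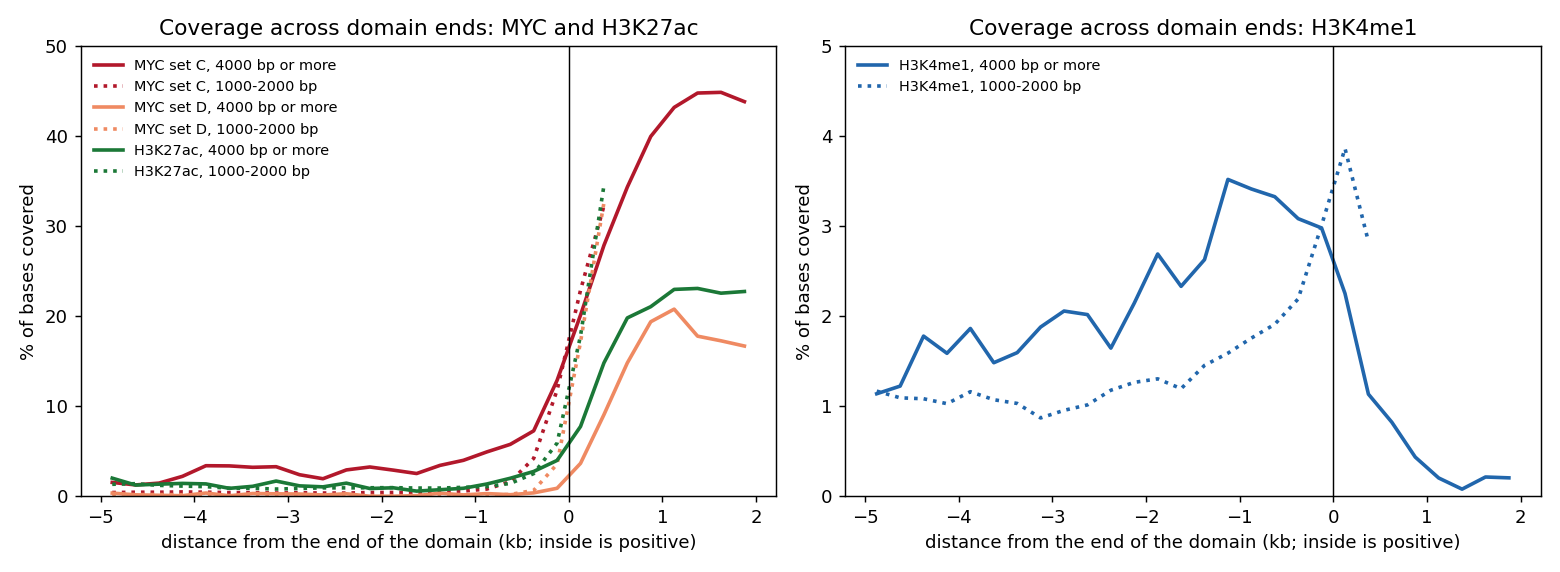
Percent of bases covered in 250 bp bins across the ends of broad domains (solid) and narrow domains (dotted), both ends pooled, against the distance from the end in kb with the inside positive. On the left MYC and H3K27ac climb on entering a domain, with MYC set C at 44.8% and MYC set D at 17.3% between 1.5 and 1.75 kb inside broad domains; on the right, on its own scale, H3K4me1 is at 0.203% between 1 and 1.25 kb inside.

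Centres of MYC and H3K27ac peaks lay less often in the inner part of a domain in broad than in narrow domains. With each domain cut into 3 equal parts, the inner part held 33.6% of MYC set D centres in broad domains (129 of 384) and 45.2% in narrow ones, a difference of -11.6 points (odds ratio 0.614, 0.492 to 0.765, adjusted p = 2.71e-05, quasi-binomial fit). MYC of set C had 38.1% and 50.3% there in broad and narrow domains (odds ratio 0.611, 0.487 to 0.765, adjusted p = 2.79e-05, n = 338), a difference of -12.1 points that was -6.02 points with the start of the highest signal as the position (adjusted p = 0.0403, an alternative chosen after seeing the data). H3K27ac differed most, with 37.1% of 372 centres in broad domains and 56.2% in narrow ones (odds ratio 0.459, 0.368 to 0.572, adjusted p = 2.37e-11, n = 338). For MYCN the shares were 38.9% and 41.9% (odds ratio 0.883, 0.434 to 1.80, adjusted p = 0.879, n = 338) and for H3K4me1 21.2% and 20.7% (odds ratio 1.03, 0.441 to 2.43, adjusted p = 0.938), and neither passed. With broad domains from 3000 bp the H3K4me1 difference turned to -9.84 points and passed (adjusted p = 0.0199, quasi-binomial fit). With the 51 domains of 6000 bp or more as the broad class, the MYC set C difference was -10.3 points and no longer passed (adjusted p = 0.141, n = 51). For MYC the inner share did not fall steadily with width. In domains over 2000 and under 4000 bp it was 52.8% for set D, 55.7% for set C and 56.1% for H3K27ac. The parts are cut from the width by which members were chosen. In narrow domains the median set C region was 1128.5 bp long and the median H3K27ac region 651 bp. A region that is long for its domain leaves its centre less room off the middle. These tests thus cannot tell a different placement of peaks from the effect of width. In distance, the median MYC set D centre lay 1244.5 bp from the nearest end of a broad domain (quartiles 846.75 and 1828.8), the median H3K27ac centre 1307.5 bp and the median MYCN centre 1382 bp. MYC set D coverage peaked at 20.8% between 1000 and 1250 bp from the end and was 16.7% between 1750 and 2000 bp.

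The gaps bridged by joining were poorer in every list but H3K4me1. Gaps inside broad domains totalled 105 kb, and MYC set D covered 8.22% of them, against 14.9% of the H3K4me3 regions around them. H3K27ac covered 8.35% of the gaps and 20.5% of the regions, and MYC of set C 22.6% and 39.3%. H3K4me1 covered 1.36% of the gaps and 0.532% of the regions. In narrow domains MYC of set D covered 35.0% of gap bases and 30.4% of region bases and set C 34.1% and 31.9%, while H3K27ac covered 25.1% of gaps and 33.1% of regions and H3K4me1 2.19% and 2.82%. Broad domains made of 1 listed region were covered to 43.6% by MYC of set C, 15.6% by set D and 22.4% by H3K27ac, those of 3 regions to 32.2%, 11.1% and 15.0%, and the 15 of 4 or 5 regions to 45.7%, 11.1% and 16.9%. Set C coverage thus followed no single order with the number of joined regions. These values were not tested. With listed regions left unjoined, the ratio of peaks per kb in broad over narrow regions was 0.424 for MYC set D, 0.443 for H3K27ac and 0.159 for H3K4me1 (each passed the threshold).

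The 10 widest domains show how the peaks are laid out. The widest, on chr12:12867383-12880390 (13008 bp), joined 4 H3K4me3 regions. It held 3 MYC set C regions over 33.1% of its bases, 2 set D peaks over 12.8%, 3 H3K27ac regions over 22.3% and 1 H3K4me1 region over 3.45%. Its MYC and H3K27ac regions lay in separate groups towards either end. Chromosome 7 from 5458036 to 5470163 (12128 bp) also held 3 set C, 2 set D and 3 H3K27ac regions, but set D covered 3.81% and H3K27ac 10.8% of it. On chr7:92458885-92469367 (10483 bp), 2 set C regions covered 33.0%, 2 set D peaks 5.40% and 1 H3K27ac region 6.86%. On chr21:36255344-36264720 (9377 bp), 1 set C region covered 29.0%, 2 set D peaks 14.2% and 1 H3K27ac region 15.1%. All 10 held H3K27ac, which covered between 4.58 and 29.1% of them, and 1 held H3K4me1. On chr19:13206348-13214481 (8134 bp), set C covered 62.4% with no set D peak.

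**Figure D5:**
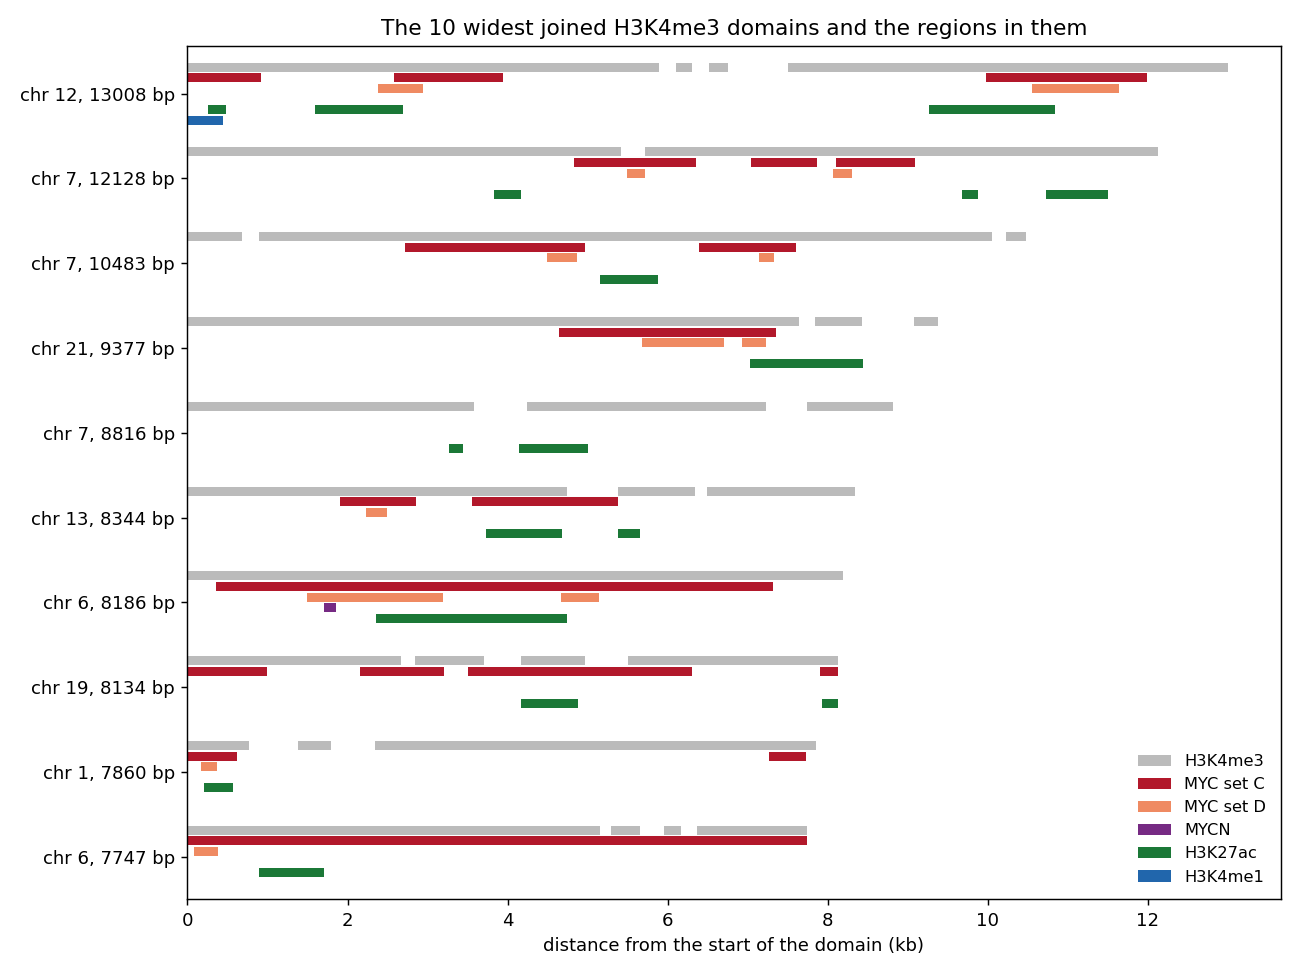
The 10 widest broad domains, from 13008 to 7747 bp, drawn to scale from the start of each domain (kb), with H3K4me3 regions in grey above the regions of each list in colour, cut at the domain's ends. On the 2 domains on chromosome 6, MYC set C covers 84.9% and 100% of the bases, MYC set D 26.5% and 3.98%, and H3K27ac 29.1% and 10.5%.

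No broad domain held more than 3 MYC set D centres. The 4 with 3 were chr15:75742527-75748854 (6328 bp, 26.6% covered by set D), chr1:92947897-92953158 (5262 bp, 31.1%), chr6:114175426-114180228 (4803 bp, 21.4%) and chr12:46763168-46767858 (4691 bp, 17%). All 4 held H3K27ac, over 21.4 to 45.2% of their bases, and MYC of set C, and none held MYCN. The domain on chromosome 1 was covered to 31.1% by set D and to 27% by set C.

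Broad domains were spread unevenly over chromosomes. Chromosome 6 had the most, 37 of its 679 joined domains (5.45%), followed in share by chromosome 4 with 22 of 437 (5.03%) and chromosome 21 with 6 of 132 (4.55%). The share was low on chromosome 16, with 3 of 514 (0.584%), chromosome 22, with 2 of 282 (0.709%), and chromosome 19, with 11 of 900 (1.22%). By the same 1 Mb rule, 59 broad domains lay in 15 runs of 3 or more, 32 pairs stood together and 215 stood alone. After the run on chromosome 6, the next held 5 domains on chr11:65189363-65659581, all with MYC of both sets and 3 with H3K27ac. Runs of 4 lay on chr11:61594501-62625721, chr12:122015294-122521054, chr17:56406551-57234605 and chr6:30582559-31708818, and each domain in these 4 runs held MYC of both sets. Over all 338, MYC of both sets lay in 80.8% and H3K27ac in 86.7%, so most domains of any run would hold them. The distribution follows from the width rule and was not tested.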

How the data were processed

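CUT&RUN peak lists of 6 libraries of RPMI-8402 were used. The deposited values are peak starts and ends in bases on hg19, the build in the submitters' processing notes, with no score or count. Per the file headers, H3K4me3 and MYC of set D were called with MACS2, MYC of set C with SEACR in stringent mode, and MYCN by cutruntools. The H3K27ac and H3K4me1 lists have no header. The labels pair each list with the IgG library of its set, except that set D MYC is listed as control of itself. The submitters' processing notes name MACS2 and SEACR without roles. The aligner is not given in the sources used here. Region lengths, and so covered bases, depend on the caller.

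Regions off chromosomes 1 to 22 and X were left out, between 0 (H3K4me3) and 53 (MYC set D) per list. MYC of either set is the merged list. A peak counts in a domain by its centre for densities and by 1 bp for overlap. Densities were fitted by quasi-Poisson with domain length as offset and the dispersion not under 1, and covered bases and inner shares by quasi-binomial models, with two-sided Wald p-values adjusted by the Benjamini-Hochberg method over 6 lists. Shares have exact Clopper-Pearson intervals. The fits were tested on simulated data, with Poisson counts in proportion to domain length. Listed counts varied less than that, with a Pearson dispersion of 0.215 for MYC set D and 0.267 for H3K27ac. The simulation thus does not show that the model suits them. The rule for named domains took the 10 widest, those with most MYC set D centres, MYCN or H3K4me1, the widest without MYC or H3K27ac, and those at the limit. The chromosome 6 run was singled out after its values were seen. Gene names and sequences need an hg19 annotation, which was not used here. Python 3.11.15, statsmodels 0.14.6, scipy 1.17.1, numpy 2.4.6 and matplotlib 3.10.9 were used. Members, lists and tests were chosen with earlier results of these data known.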

Additional observations from a re-analysis of the deposited data

How the results depend on the processing

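Of the values recomputed under the alternatives, 195 kept their direction and their side of the threshold, 11 no longer passed it and 8 turned direction. The lower density of MYC set D, H3K27ac and H3K4me1 and their lower coverage did so under every alternative run, all with domain width as the divisor. Adjusted p-values of these fits over domains stand in brackets. Left unjoined, the regions gave -1.67 points for the coverage of both MYC lists merged (0.160) and a flank ratio of 1.35 for H3K27ac (0.0567). With a joining gap of 2 kb the MYC set D flank ratio was 1.13 (0.674). With broad domains from 3000 bp, MYCN gave a density ratio of 0.818 (0.0608) and -0.0749 points of coverage (0.474), the H3K27ac flank ratio was 1.14 (0.156), and the inner share of H3K4me1 centres differed by -9.84 points (0.0199). From 6000 bp, the inner shares differed by -10.3 points for MYC set C and -10.3 for both lists merged (0.141 each) and by 8.12 points for MYCN (0.745), and the H3K27ac flank ratio was 1.37 (0.372). Against domains over 2000 and under 4000 bp, MYC set C coverage differed by 1.19 points (0.323) and the MYC set D flank ratio was 1.62 (0.0942). With the wider peaks alone, the MYC set C density ratio was 1.08 (0.282), the merged MYC coverage differed by 4.43 points (0.000208) and MYCN coverage by -0.216 points (0.0947). In flanks of 2 kb the H3K27ac ratio was 1.18 (0.470). The causes were not tested. Leaving out 1 MYC library at a time put the merged list between 0.398 and 0.698 in density, -16.0 and 6.37 points in coverage, -12.1 and -11.6 points in inner share, and 0.951 and 3.52 in flank ratio. Its coverage thus turned sign without set D and its flank ratio without set C. The other alternatives were chosen after seeing the data: without chromosome 6 no call changed, and with the start of the highest signal as the position of a MYC set C region its density ratio was 0.701 and its inner share differed by -6.02 points (0.0403). A negative binomial fit could not be fitted for the 3 MYC densities. No paired analysis was possible because each target has 1 library per set and library numbers join no broad with narrow domain.

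Depth, scores and reads are not in the lists, so signal under a caller's limit was not measured. With 1 library per list, no spread between cultures was measured, and the p-values treat domains as independent. MYCN (36 centres) and H3K4me1 (33 centres) in broad domains give wide intervals.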
